A study of Homo sapiens with 16 samples.

Results

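RNA-seq libraries of MCF10A cells given collagen together with AI-10-104 were compared with libraries of cells given collagen and the solvent DMSO (collagen alone). These are 8 of the 16 libraries of the series, 4 in each group, and were taken by their labels. MCF10A is an immortalized, non-tumorigenic human breast epithelial line, so that all libraries come from 1 cell line. AI-10-104, called RUNXi here, is a small molecule that keeps RUNX proteins from binding CBFβ. Cells of both groups received type I collagen at 0.05 mg/mL, with NaOH for polymerization, for the last 24 h. RUNXi was present at 5 μM for 48 h, and the collagen group had DMSO for the same time. The medium of both groups held insulin, EGF, hydrocortisone, cholera toxin and horse serum. Replicates are numbered in the labels, but nothing says that they came from separate cultures, so that p-values measure the spread between these libraries only. Another group with collagen and DDR1-IN-1 (DDR1i), an inhibitor of the collagen receptor kinase DDR1, at 2 μM for 48 h, and a DMSO group without collagen were used beside them where stated.

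RUNX1, RUNX2 and RUNX3 are transcription factors that share a DNA-binding domain, and each binds DNA stably only as a pair with the non-DNA-binding partner CBFβ. In breast epithelium RUNX1 is known for its part in luminal and basal cell fate, and somatic mutations of *RUNX1* and *CBFB* occur in breast cancer. A compound that separates the pair acts on proteins, so that the transcript levels of the factors are no check of its action.

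All 12 epithelial markers examined (among them *EPCAM*, *CDH1*, *KRT5*, *KRT14* and *TP63*) were above 1 normalized CPM (counts scaled to library size with edgeR's TMM method) in both groups. Their summed level ranged from 17780 to 24550 CPM with collagen alone and from 21250 to 25420 CPM with RUNXi. *PTPRC*, *CD3E* and *LYZ*, which mark leukocytes, were at 0 in every library of both groups. The 7 leukocyte markers summed to 22.7 to 36.8 CPM with collagen alone and to 9.40 to 31.9 CPM with RUNXi, nearly all of it *CD68* (8.53 to 24.0 and 9.07 to 25.2 CPM) and *CD14* (4.96 to 14.2 and 0.328 to 6.72 CPM). The 5 endothelial markers summed to 3.98 CPM at most. The 8 fibroblast markers summed to 10.8 to 32.9 CPM with collagen alone and to 7.52 to 20.3 CPM with RUNXi. In bulk RNA, fewer cells of a kind and less RNA per cell cannot be told apart. Total counts ranged from 17570707 to 27695778 with collagen alone and from 15558341 to 26162434 with RUNXi. In a principal component analysis of the 500 most variable genes in these libraries, RUNXi replicate 1 (46.1 on PC1, -28.4 on PC2) and RUNXi replicate 3 (-33.9 and -38.7) lay apart from the other 6, of which the farthest was at 15.3 on PC1. The authors had removed collagen replicate 3 as an outlier, and the calls below are therefore given without that library, and with it where both values stand side by side.

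The first question was which genes responded to RUNXi in cells on collagen, and for how many this depended on the removed library. Without collagen replicate 3, 351 of the 13548 genes tested were higher with RUNXi (2.59%) and 198 were lower (1.46%), at an adjusted p under 0.05 (quasi-likelihood test of edgeR, p-values adjusted over all tested genes after Benjamini and Hochberg). With it, 31 of 13361 genes were higher (0.232%) and 29 were lower (0.217%). The fold changes were modest, with a median log2 fold change of 0.71 among the genes that were higher and -0.53 among those that were lower, and 65 and 12 of them, respectively, changed over 2-fold. All of these genes kept the sign of their fold change with collagen replicate 3 included, but only 30 of the higher and 29 of the lower genes passed the threshold in both fits. Left out one at a time, collagen replicate 4 made the largest difference among the remaining libraries, with 81 genes higher and 42 lower without it. Without RUNXi replicate 1, 2, 3 or 4 there were 240, 199, 129 and 153 higher genes and 94, 86, 61 and 71 lower ones, and without collagen replicate 1 there were 352 and 363. The share of calls that were higher was 63.9%, and became 51.7% with collagen replicate 3, 47.2% with each library corrected for its trend with transcript length and 80.1% with libraries scaled by their totals alone. The 59 genes carry most of the description that follows.

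Across all tested genes, 5.15% had their 4 RUNXi values all above or all below the 4 collagen values. Among the genes that passed in both fits, this held for 29 of the 30 that were higher (the exception was *ATP1B1*, a sodium pump subunit) and for all 29 that were lower. It held for 97 of the 351 and 77 of the 198 genes called without replicate 3. The genes were called on these same libraries, so that their separation is largely built in and is no separate support. Of the 30 and 29 genes, 21 and 19 passed in each of the 7 fits that left out another library (as edgeR calls without collagen replicate 3), 29 and 28 were also called by DESeq2 in both choices of libraries, and 14 and 17 differed between RUNXi and DDR1i as well. The comparison with DDR1i shares the RUNXi libraries by which the 59 genes were chosen, so that these counts are no separate support. *AKR1C2* was the 1 gene called with collagen replicate 3 but not without it.

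**Figure D1:**
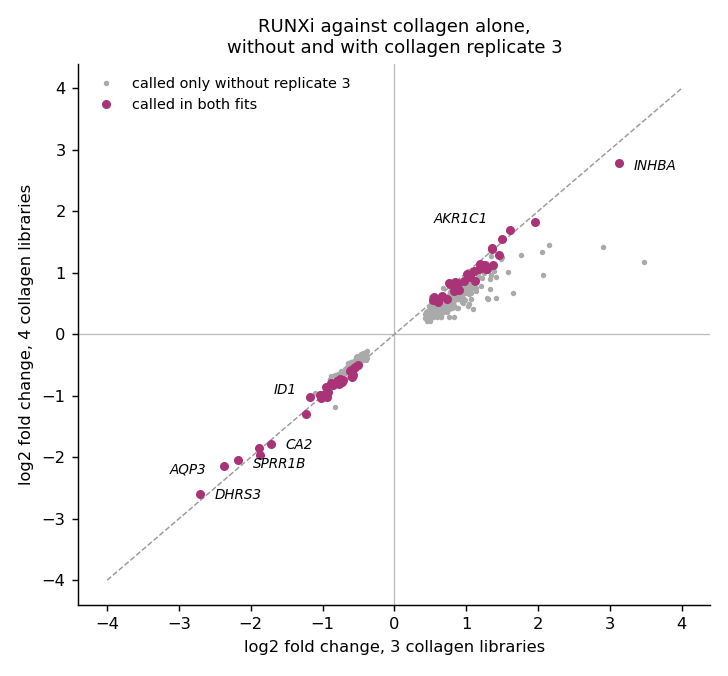
Log2 fold change of RUNXi against collagen alone with 3 collagen libraries (horizontal) and with all 4 (vertical), for genes called without collagen replicate 3. Each point is a gene, with the 59 genes called in both fits in purple, and 544 of the 549 genes lie within the axes. Every point keeps its sign, and most grey points on the right lie below the dashed line of equal fold change.

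Neither the RUNX factors nor their partner passed the test at the level of their transcripts. *RUNX1* had 61.0, 42.2, 57.3 and 45.5 CPM in collagen replicates 1 to 4 and 57.7, 54.7, 66.8 and 65.5 CPM in RUNXi replicates 1 to 4, so that the groups overlapped (log2 fold change 0.30, SE 0.15, edgeR adjusted p = 0.260). *CBFB* had 74.8, 68.5, 67.9 and 67.7 CPM with collagen alone and 65.0, 67.7, 58.0 and 55.1 CPM with RUNXi (-0.20, SE 0.13, edgeR adjusted p = 0.416). Each RUNXi value lay below each collagen value, by less than the test could call. *RUNX2* was low (1.44 to 5.18 CPM with collagen alone, 2.42 to 3.16 CPM with RUNXi), and *RUNX3* had 0 counts in all 8 libraries. Of the 20 tested factors, corepressors and cofactors, 1 passed, the kinase gene *HIPK2* (log2 fold change 0.94, edgeR adjusted p = 0.0219), and its call was lost with collagen replicate 3 (edgeR adjusted p = 0.224) and in 3 of the 7 fits that left out a library. Over all genes, 2.59% were higher and 1.46% lower, so that 1 of 20 is near those shares and is no result about RUNX partners.

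Of 10 genes that the study names as RUNX1 targets or lists among its qPCR assays (the latter *ZEB1*, *BCAR3* and *ABCD4*), 4 were lower with RUNXi (*ID1*, *CEBPD*, *ANP32B* and *DUT*), 1 was higher (*PLEC*) and 5 did not pass (*MYC*, *STAT3*, *ZEB1*, *BCAR3* and *ABCD4*). With collagen replicate 3 included, *ID1* alone passed. Of all genes tested, 2.59% were higher and 1.46% lower without that library, and 0.232% and 0.217% with it. *ID1*, an inhibitor of basic helix-loop-helix factors and a classical BMP target, had 161, 170, 85.3 and 119 CPM with collagen alone and 73.6, 71.5, 54.6 and 65.9 CPM with RUNXi. Collagen replicate 3 was the collagen library nearest to the RUNXi values and still lay above all of them. *CEBPD*, a C/EBP transcription factor, had 95.6, 75.9, 54.5 and 76.5 CPM with collagen alone and 56.3, 40.9, 56.7 and 38.6 CPM with RUNXi, and its groups overlapped through replicate 3 (edgeR adjusted p = 0.0178 without and 0.151 with it). *MYC*, the growth-regulating transcription factor, lay between 437 and 592 CPM with collagen alone and between 422 and 576 CPM with RUNXi.

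The clearest rise concerned genes of the antioxidant response. NRF2 is a transcription factor that is held inactive by KEAP1 and, once released by oxidants or electrophiles, switches on enzymes that make glutathione, supply NADPH and detoxify reactive carbonyls and quinones. Of 33 tested genes of this response (NRF2 itself and its targets), 8 were higher with RUNXi and 0 lower, with a median log2 fold change of 0.33 against 0.005 over all genes tested. The share of all genes called higher was 2.59%, and 0.232% with collagen replicate 3. With collagen replicate 3 included, 5 were higher and the median was 0.38, and with each library corrected for its trend with transcript length 8 were higher. Compared directly with DDR1i, 10 of the 33 were higher with RUNXi, where 0.221% of all genes were. That comparison also holds what DDR1i changed, such as its fall of *AKR1C1* against collagen alone (log2 fold change -0.70). The count without collagen replicate 3 was 4 when collagen replicate 2 or RUNXi replicate 1 was left out, and 5 without RUNXi replicate 2 or 3.

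*AKR1C1*, an aldo-keto reductase that reduces ketosteroids and lipid aldehydes, had 34.0, 35.4, 28.9 and 47.3 CPM in collagen replicates 1 to 4 and 133, 83.6, 156 and 103 CPM in RUNXi replicates 1 to 4. The groups were well apart, and the DMSO libraries without collagen (23.3 to 44.7 CPM) lay with the collagen libraries. The rise was 3.04-fold (log2 fold change 1.605, SE 0.20, adjusted p = 6.73e-05 by edgeR's quasi-likelihood test), and 1.69 on the log2 scale with replicate 3 (SE 0.19, adjusted p = 3.53e-05). *AKR1C1*, *AKR1C2* and *AKR1C3* are near-identical neighbours on chromosome 10 whose reads can be split between them, so their separate values are uncertain. *AKR1C2* had 97.9 to 114 CPM with collagen alone and 258, 217, 457 and 148 CPM with RUNXi. *AKR1C3* lay between 37.7 and 50.9 CPM with collagen alone and between 56.2 and 98.4 CPM with RUNXi.

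*TXNRD1*, the cytosolic thioredoxin reductase, had 122, 134, 135 and 114 CPM with collagen alone and 230, 197, 256 and 228 CPM with RUNXi. Collagen replicate 3 was the highest of its group and still far below the RUNXi libraries, and the rise was 1.84-fold (log2 fold change 0.88, SE 0.13, edgeR adjusted p = 0.000215 without and 0.000431 with replicate 3). *GCLC*, the catalytic subunit of the enzyme that limits glutathione synthesis, had 67.3, 71.2, 52.5 and 51.7 CPM with collagen alone and 128, 106, 108 and 91.96 CPM with RUNXi (log2 fold change 0.77, SE 0.15, edgeR adjusted p = 0.00943 without and 0.00781 with replicate 3). *ABCC3*, an efflux pump for glucuronide and other conjugates, had 85.6, 65.8, 96.1 and 55.1 CPM with collagen alone and 166, 160, 193 and 145 CPM with RUNXi (1.27, SE 0.16, edgeR adjusted p = 6.46e-05 without and 0.000431 with replicate 3). For both genes no RUNXi library reached down to a collagen library. *NQO1*, a quinone reductase, rose by less, with a log2 fold change of 0.51 (SE 0.13, edgeR adjusted p = 0.0298), and missed the threshold with replicate 3 (edgeR adjusted p = 0.0517). *HMOX1*, heme oxygenase, was low (3.09 to 3.904 CPM with collagen alone, 5.00 to 11.2 CPM with RUNXi) and was called in 1 of the 7 leave-one-out fits and not with replicate 3 (edgeR adjusted p = 0.0448 without and 0.115 with it). *NFE2L2*, the gene of NRF2 itself, was not among the genes that rose (log2 fold change -0.39, edgeR adjusted p = 0.0752).

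Few genes of iron handling were called, among them genes of storage and of uptake. *FTL*, the light chain of the iron store ferritin, had 450, 536, 430 and 691 CPM with collagen alone and 913, 908, 1200 and 773 CPM with RUNXi. Its 4 RUNXi values exceeded every collagen value (log2 fold change 0.76, SE 0.14, edgeR adjusted p = 0.00519 without and 0.00594 with replicate 3), with the reservation that *FTL* has processed pseudogenes that can take its reads. *TFRC*, the transferrin receptor that brings iron into the cell, had 207, 211, 213 and 183 CPM with collagen alone and 406, 423, 337 and 449 CPM with RUNXi. It doubled almost exactly (2.01-fold, SE 0.13 on the log2 scale, edgeR adjusted p = 9.87e-05 without and 0.000132 with replicate 3), and the DMSO libraries without collagen lay between 231 and 336 CPM. Transcripts of an iron storage gene and of an iron uptake gene were thus both higher. *FTH1*, the ferritin heavy chain, missed the threshold in both fits (log2 fold change 0.71, edgeR adjusted p = 0.0507 and 0.0656). Of 13 tested genes of ferritin and iron handling, 3 were higher and 0 lower (*TFRC*, *FTL* and *HMOX1*, the last also counted among the NRF2 targets), with a median log2 fold change of 0.13. With collagen replicate 3 included 2 were higher (*TFRC* and *FTL*), with a median of 0.10. Shares of all genes called higher were 2.59% without and 0.232% with that library.

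**Figure D2:**
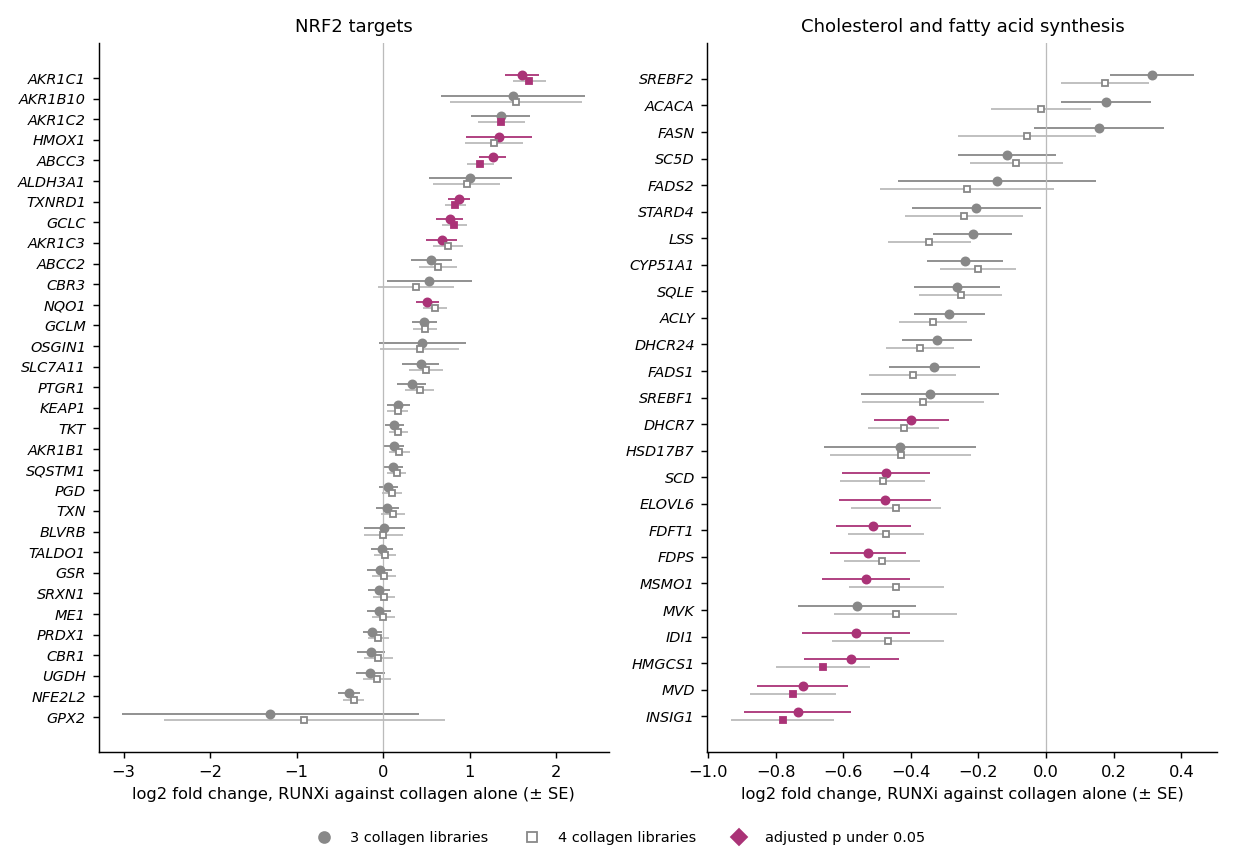
Log2 fold change (± SE) of RUNXi against collagen alone for tested NRF2 targets (left) and genes of cholesterol and fatty acid synthesis (right), without a few members that are not reported here. Circles use 3 collagen libraries and squares all 4, with purple for an adjusted p under 0.05. AKR1C1 is at the top on the left and INSIG1 and MVD are at the bottom on the right, with circle and square close together for each.

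DNA upstream of called genes of these lists is shown because they rose together and because the inhibited factor has a known core motif. Only sequences with a match are printed. *GCLC* also had one (TGCGGT on the opposite strand at -177), and *AKR1C3*, *NQO1* and *TFRC* had none in this window. The 250 bases before the start site were taken from RefSeq (GRCh38.p14) and searched on both strands for the RUNX core motif in its forms TGTGGT and TGCGGT and for the core of the NRF2 element, TGACNNNGC. Occurrences of different motifs were counted separately, even where they shared bases. Matches are in capitals, and a match is a description, not a shown binding site. Outside these lists, *TINAGL1* and *S100A14*, which were lower with RUNXi, also had matches that are not printed. *TINAGL1* had TGCGGT on the opposite strand at -220. *S100A14* had TGACNNNGC at -228 and, on the opposite strand, at -161. *AKR1C1* (chr10:4963165-4963414, plus strand) has TGTGGT on the opposite strand with its first base at -186, *TXNRD1* (chr12:104215529-104215778, plus strand) has TGACNNNGC at -99, and *FTL* (chr19:48965059-48965308, plus strand) has TGCGGT on the opposite strand at -88.
AKR1C1: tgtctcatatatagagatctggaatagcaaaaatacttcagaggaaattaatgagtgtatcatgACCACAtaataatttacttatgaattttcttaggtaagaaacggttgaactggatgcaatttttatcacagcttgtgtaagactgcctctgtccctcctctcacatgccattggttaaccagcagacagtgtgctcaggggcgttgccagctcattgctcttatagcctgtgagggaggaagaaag
TXNRD1: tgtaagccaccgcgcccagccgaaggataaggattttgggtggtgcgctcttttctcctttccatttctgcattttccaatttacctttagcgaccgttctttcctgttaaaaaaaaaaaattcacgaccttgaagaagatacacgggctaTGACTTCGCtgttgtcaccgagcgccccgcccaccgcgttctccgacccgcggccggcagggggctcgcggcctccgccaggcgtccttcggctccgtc
FTL: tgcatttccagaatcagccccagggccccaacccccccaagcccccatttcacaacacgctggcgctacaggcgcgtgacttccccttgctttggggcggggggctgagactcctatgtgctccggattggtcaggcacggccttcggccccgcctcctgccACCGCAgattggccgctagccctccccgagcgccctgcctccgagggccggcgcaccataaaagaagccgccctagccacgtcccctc

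Upstream sequences were matched for 10528 of the 13548 tested genes, and 15.2% of them held either RUNX form in these 250 bases, against 16.1% of all 27305 sequences in the table. The share was 17.7% of the 283 matched genes that were higher with RUNXi and 18.2% of the 159 that were lower. For TGACNNNGC the shares were 10.2% and 12.6%, against 12.1% of all matched tested genes. Among the genes called in both fits the numbers were small and the shares farther from the background. A RUNX form stood upstream of 7 of 22 matched higher genes (31.8%) and 2 of 21 lower genes (9.52%), and TGACNNNGC upstream of 5 (22.7%) and 4 (19.0%). These shares are a description and were not tested.

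Genes of cholesterol and fatty acid synthesis moved the other way. In this pathway acetyl-CoA is built into mevalonate and squalene and then into sterols, under the control of SREBP factors that INSIG proteins hold in the endoplasmic reticulum when sterols are plentiful. Of 27 tested members, 10 were lower with RUNXi and 0 higher, with a median log2 fold change of -0.33, and 3 were lower with collagen replicate 3 included (median -0.37). By comparison, 1.46% of all genes tested were lower, and 0.217% with that library. With the transcript length trend removed 8 were lower, and compared directly with DDR1i 8 were lower with RUNXi, where 0.347% of all genes were. The count was 3 without RUNXi replicate 4, 4 without RUNXi replicate 3 and 6 without collagen replicate 2.

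*MVD*, which makes isopentenyl diphosphate from mevalonate diphosphate, had 119.9, 118, 122 and 111 CPM in collagen replicates 1 to 4 and 69.9, 78.8, 75.4 and 59.0 CPM in RUNXi replicates 1 to 4. The groups were far apart relative to their spread, a 1.65-fold fall (log2 fold change -0.72, SE 0.13, edgeR adjusted p = 0.00467 without and 0.00427 with replicate 3), although the DMSO libraries without collagen reached down to 72.1 CPM. *INSIG1* had 92.8, 107, 104 and 84.9 CPM with collagen alone and 61.97, 63.3, 58.7 and 45.3 CPM with RUNXi (log2 fold change -0.73, SE 0.16, edgeR adjusted p = 0.0140 and 0.0195). *HMGCS1*, the first committed enzyme of the pathway, had 325, 312, 366 and 270 CPM with collagen alone and 219.5, 257, 171 and 167 CPM with RUNXi (-0.58, SE 0.14, edgeR adjusted p = 0.0234 and 0.0314). *HMGCS1* was called in 5 of the 7 leave-one-out fits. *FDPS* and *FDFT1*, which make farnesyl diphosphate and squalene, fell by 0.53 and 0.51 on the log2 scale, and neither passed with replicate 3 (edgeR adjusted p = 0.0517 and 0.0660). Upstream of *MVD* (chr16:88663092-88663341, minus strand, shown 5′ to 3′ in the direction of the gene) TGTGGT stands at -78.
MVD: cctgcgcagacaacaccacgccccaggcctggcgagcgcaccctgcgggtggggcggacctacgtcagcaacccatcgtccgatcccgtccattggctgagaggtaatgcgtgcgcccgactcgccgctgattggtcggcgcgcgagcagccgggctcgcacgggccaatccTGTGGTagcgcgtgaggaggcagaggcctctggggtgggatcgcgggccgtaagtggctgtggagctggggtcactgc

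Enzymes of retinoid and bicarbonate chemistry were among the genes that fell. *DHRS3* (chromosome 1, 12627939 to 12678216 in GRCh37) encodes a reductase that turns retinaldehyde back into retinol. It had 35.6, 28.9, 19.8 and 22.5 CPM with collagen alone and 3.16, 3.32, 4.33 and 6.91 CPM with RUNXi. No RUNXi library came near a collagen library or a DMSO library without collagen (13.2 to 35.4 CPM). The fall was 6.53-fold (log2 fold change -2.71, SE 0.27, edgeR adjusted p = 4.54e-06 without and 9.72e-06 with replicate 3), and *DHRS3* was also lower than with DDR1i (log2 difference -1.92, SE 0.26, edgeR adjusted p = 0.000103). *ALDH1A3*, which oxidizes retinaldehyde to retinoic acid, fell by 0.64 on the log2 scale (edgeR adjusted p = 0.0407, and 0.0501 with replicate 3) and was called in 1 of the 7 leave-one-out fits. *CA2*, a cytosolic carbonic anhydrase, had 31.3, 33.2, 36.5 and 33.2 CPM with collagen alone and 7.02, 10.3, 10.3 and 11.9 CPM with RUNXi. This 3.30-fold fall (log2 fold change -1.72, SE 0.20, edgeR adjusted p = 2.75e-05 and 9.72e-06) again separated the groups fully. The cytochrome P450 gene *CYP4F11* rose (log2 fold change 1.504, SE 0.32, edgeR adjusted p = 0.0183 and 0.0120), from 5.11 to 13.99 CPM with collagen alone to 21.7 to 40.8 CPM with RUNXi. Of 15 tested genes of steroid, retinoid and xenobiotic metabolism these 3 (*DHRS3*, *ALDH1A3*, *CYP4F11*) passed, and *DHRS3* and *CYP4F11* did with replicate 3. Among all genes tested, 2.59% were higher and 1.46% lower (0.232% and 0.217% with replicate 3).

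**Figure D3:**
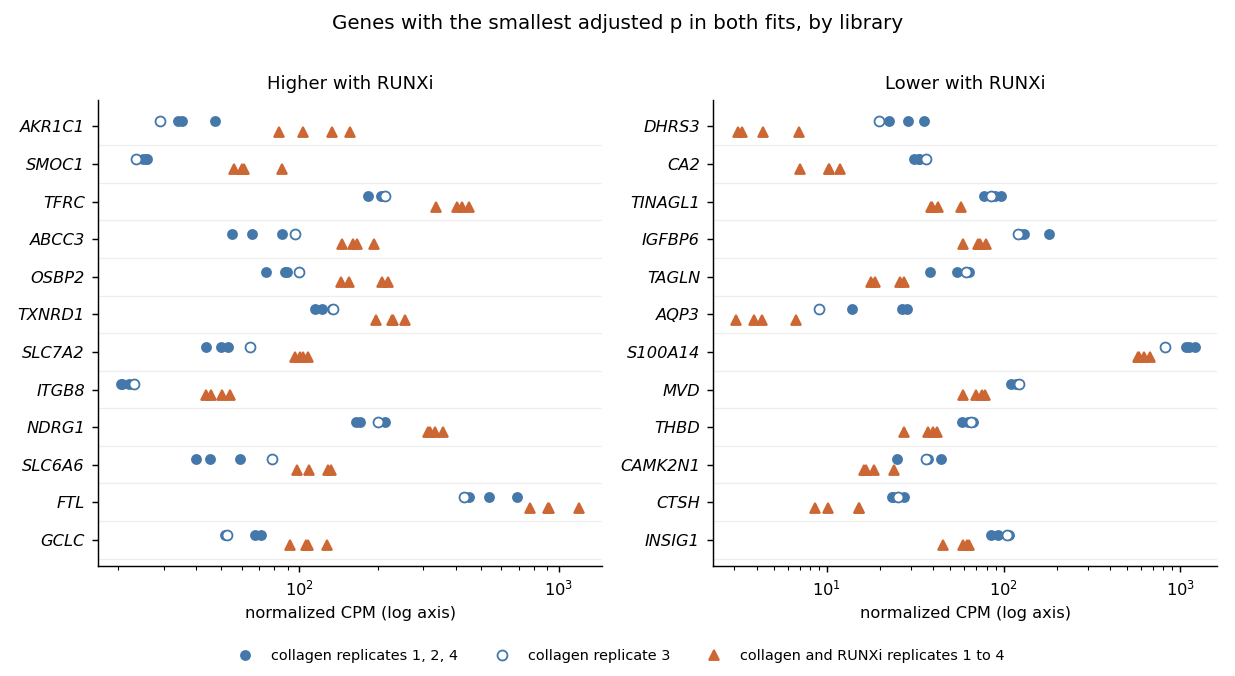
Normalized CPM (log axis) in each library for the 12 higher (left) and 12 lower (right) genes with the smallest larger adjusted p of the fits without and with collagen replicate 3. Circles are collagen libraries, the open circle is replicate 3 and triangles are RUNXi libraries. Circles and triangles do not overlap for any gene shown, and replicate 3 is the collagen value nearest to the triangles for 11 of the 24 genes, ABCC3, SLC6A6 and AQP3 among them.

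A further set of called genes encodes secreted and matrix-associated proteins. *SMOC1*, a secreted calcium-binding protein of basement membranes, had 25.8, 25.0, 23.5 and 25.5 CPM with collagen alone and 60.9, 59.95, 56.1 and 85.6 CPM with RUNXi. The collagen values were very close to each other, and the rise was 2.57-fold (log2 fold change 1.36, SE 0.17, edgeR adjusted p = 7.13e-05 without and 3.53e-05 with replicate 3). *TINAGL1*, a matricellular protein, had 89.1, 97.2, 84.5 and 77.8 CPM with collagen alone and 39.3, 42.6, 38.7 and 57.2 CPM with RUNXi (-0.99, SE 0.14, edgeR adjusted p = 0.000291 and 0.000431). *INHBA*, a subunit of activin, had 4.04, 1.78, 5.77 and 2.97 CPM with collagen alone and 25.8, 15.1, 23.8 and 36.7 CPM with RUNXi. It had the largest fold change among the genes called in both fits (8.73-fold, SE 0.57 on the log2 scale, edgeR adjusted p = 0.0183 and 0.0246), but lost its call when collagen replicate 4 was left out. *THBS1*, thrombospondin 1, rose from 272, 279, 497 and 328 CPM to 671, 640, 718 and 1004 CPM (1.37, SE 0.20, edgeR adjusted p = 0.00289 and 0.0351), and it too lost its call without collagen replicate 4. Collagen replicate 3 was the highest of the collagen libraries for both. The DMSO libraries without collagen had 302 to 701 CPM of *THBS1*, which reached into the RUNXi range. For *INHBA* they had at most 6.48 CPM.

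Other called genes of secreted or membrane-bound proteins were lower. *IGFBP6*, which binds insulin-like growth factors, had 123, 130, 120.0 and 181 CPM with collagen alone and 73.4, 58.6, 79.6 and 71.6 CPM with RUNXi (log2 fold change -1.04, SE 0.15, edgeR adjusted p = 0.000184 and 0.000776). *IGFBP3*, of the same family, was scarcer, with 9.82, 9.14, 10.1 and 5.41 CPM with collagen alone and 0.985, 2.54, 3.38 and 2.10 CPM with RUNXi (-1.87, SE 0.43, edgeR adjusted p = 0.0187 and 0.0246). Both groups were fully apart for each. *THBD*, thrombomodulin, had 62.7, 58.2, 65.5 and 66.9 CPM with collagen alone and 37.6, 39.7, 27.5 and 41.9 CPM with RUNXi (-0.78, SE 0.15, edgeR adjusted p = 0.00896 and 0.00852). *TAGLN*, the actin-binding protein transgelin, had 38.1, 54.6, 61.2 and 63.3 CPM with collagen alone and 17.8, 18.7, 25.8 and 27.1 CPM with RUNXi (-1.22, SE 0.21, edgeR adjusted p = 0.00226 and 0.00127). *CAMK2N1*, an inhibitor of the kinase CaMKII, fell by 0.92 on the log2 scale and *CTSH*, the lysosomal protease cathepsin H, by 1.02 (edgeR adjusted p = 0.0113 and 0.0138 without, and 0.0142 and 0.0195 with replicate 3). *C10orf54*, now named *VSIR*, a negative regulator of T cells, fell from 18.6 to 22.8 CPM to 1.47 to 10.2 CPM (-1.88, SE 0.39, edgeR adjusted p = 0.0183 and 0.0229) and was not called without collagen replicate 4 or without RUNXi replicate 1.

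Among transporters and membrane proteins, *SLC7A2*, which carries arginine and lysine, had 43.6, 50.04, 64.6 and 53.03 CPM with collagen alone and 103, 100.1, 96.3 and 108 CPM with RUNXi (log2 fold change 1.05, SE 0.14, edgeR adjusted p = 8.16e-05 and 0.000542). *SLC6A6*, the taurine transporter, had 39.9, 58.95, 78.4 and 45.3 CPM with collagen alone and 129, 98.2, 133 and 109 CPM with RUNXi (1.28, SE 0.16, edgeR adjusted p = 6.46e-05 and 0.00239). For both, collagen replicate 3 was the collagen library closest to the RUNXi group without reaching it. The DMSO libraries without collagen had 36.2 to 78.2 CPM of *SLC7A2* and 77.4 to 96.5 CPM of *SLC6A6*, the latter close to the RUNXi values. *ITGB8*, an integrin chain that binds latent TGF-β, had 22.1, 20.4, 23.1 and 20.6 CPM with collagen alone and 53.9, 43.4, 45.5 and 50.4 CPM with RUNXi (1.19, SE 0.19, edgeR adjusted p = 0.000939 and 0.000936). *OSBP2*, an oxysterol-binding protein, rose by 1.11 on the log2 scale and *NDRG1*, a gene induced by hypoxia and by iron depletion, by 0.85 (edgeR adjusted p = 0.000126 and 0.000939 without, and 0.000431 and 0.00201 with replicate 3). Of 29 tested genes of glycolysis and the hypoxia response, *NDRG1* was the 1 that passed. This is near the shares over all genes (2.59% higher and 1.46% lower) and is no result about the pathway. *AQP3*, a channel for water and glycerol, had 28.6, 26.7, 9.01 and 13.95 CPM with collagen alone and 6.65, 3.05, 4.27 and 3.86 CPM with RUNXi (-2.37, SE 0.32, edgeR adjusted p = 0.000111 and 0.00263).

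*AQP3* also belongs to the genes of squamous differentiation, in which epithelial cells build a cornified envelope. Of 26 tested members, 4 were lower (*AQP3*, *SPRR1B*, *CSTA* and *S100A9*) and 0 higher, with a median log2 fold change of -0.81, and 2 were lower with collagen replicate 3 included (*AQP3* and *SPRR1B*, median -0.59). Beside this, 1.46% of all genes tested were lower, and 0.217% with that library. *SPRR1B*, an envelope precursor, had 36.1, 20.7, 22.2 and 48.9 CPM with collagen alone and 5.58, 8.63, 4.01 and 12.8 CPM with RUNXi (-2.17, SE 0.40, edgeR adjusted p = 0.0131 and 0.0229). *S100A14*, a small calcium-binding protein of epithelia, had 1202, 1117, 814 and 1075 CPM with collagen alone and 677, 619, 584 and 579 CPM with RUNXi (-0.89, SE 0.12, edgeR adjusted p = 0.000111 and 0.00309). Collagen replicate 3 lay between the other collagen libraries and the RUNXi libraries. None of *AQP3*, *SPRR1B* and *S100A14* differed between RUNXi and DDR1i (edgeR adjusted p = 0.550, 0.651 and 0.723), which does not show that they were alike. Of 12 tested keratins, *KRT7* and *KRT18*, both of simple epithelia, were lower. *KRT18* was called in 1 of the 7 leave-one-out fits and not with replicate 3 (log2 fold change -0.46, edgeR adjusted p = 0.0419 without and 0.322 with it). *KRT7* fell from 2381 to 3255 CPM to 1690 to 2058 CPM (-0.55, SE 0.12, edgeR adjusted p = 0.0165 and 0.0489). The call of *KRT7* was lost without collagen replicate 4. Mammary lineage factors had 0 of 12 called by edgeR (2 at an unadjusted p under 0.05) and 0 by DESeq2. Of all 13548 genes tested, 2853 had an unadjusted p under 0.05 by edgeR and DESeq2 called 1153.

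Several lists of large proteins had called members without collagen replicate 3 and few or none with it. Over all genes tested, 2.59% were higher and 1.46% lower without that library, and 0.232% and 0.217% with it. With that library, 1632 of all genes had an unadjusted p under 0.05 by edgeR and DESeq2 called 145. Of 16 giant cytoskeletal linkers, 11 were higher with RUNXi and 0 lower (among them *UTRN*, *AHNAK*, *SYNE2* and *MACF1*), with a median log2 fold change of 0.66, and 0 passed with collagen replicate 3 included (median 0.44, 9 at an unadjusted p under 0.05 by edgeR, 1 by DESeq2). Of 30 chromatin regulators, 8 were higher (among them *EP400*, *TRRAP*, *KMT2D* and *ATRX*; median 0.50), and 0 with replicate 3 (6 at an unadjusted p under 0.05 by edgeR, 0 by DESeq2). Without collagen replicate 4, 1 linker and 1 chromatin regulator were called, and without RUNXi replicate 3, 4 and 1. *UTRN*, the linker with the smallest adjusted p, had 10.9, 13.6, 32.25 and 8.14 CPM with collagen alone and 23.9 to 32.7 CPM with RUNXi. The DMSO libraries without collagen had 15.4 to 39.3 CPM. *UTRN* was also higher with DDR1i than with collagen alone (log2 fold change 1.49, edgeR adjusted p = 0.00120). That comparison uses the same collagen libraries and is no separate support. *AHNAK* had 529 to 1220 CPM with collagen alone, 1011 to 1278 CPM with RUNXi and 813 to 1279 CPM without collagen. Of 34 adhesion and hemidesmosome genes, 8 were higher and 1 lower, led by the integrin chains *ITGA6* and *ITGB4* (log2 fold changes 0.59 and 0.66), and again 0 passed with replicate 3 (edgeR adjusted p = 0.0775 and 0.152 for this pair, 11 of the list at an unadjusted p under 0.05, 4 by DESeq2). Among 40 matrix genes, 8 were higher and 2 lower (*TINAGL1* and *TNC*), and 1 and 1 with replicate 3 (*THBS1* and *TINAGL1*). Without collagen replicate 4, 4 adhesion genes and 3 matrix genes were called. *FN1*, fibronectin, had 317, 314, 656 and 228 CPM with collagen alone and 577, 609, 804 and 654 CPM with RUNXi, so that collagen replicate 3 lay within the RUNXi range (edgeR adjusted p = 0.0198 without and 0.359 with it). *COL6A3*, *NIPAL1* and *ZBED6* had log2 fold changes of 2.05, 2.15 and 2.07 without that library, and lost their calls with it (edgeR adjusted p = 0.281, 0.150 and 0.554).

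Lists of small housekeeping proteins had called members that were lower. The share of all genes called lower was 1.46%, and 0.217% with collagen replicate 3. Of 85 cytosolic ribosomal protein genes, 8 were lower and 0 higher (median log2 fold change -0.30), of 77 mitochondrial ribosomal protein genes 10 were lower (-0.37), of 79 genes of oxidative phosphorylation 11 (-0.31) and of 46 proteasome genes 4 (-0.29). The member with the smallest adjusted p was *RPL23A*, *MRPL22*, *NDUFB3* and *PSMA5*, respectively. *RPL23A* had 513, 508, 401 and 725.5 CPM with collagen alone and 384 to 426 CPM with RUNXi. The DMSO libraries without collagen had 368 to 419 CPM. *RPL23A* was also lower with DDR1i than with collagen alone (log2 fold change -0.51, edgeR adjusted p = 0.0249), in a comparison that uses the same collagen libraries and is no separate support. *NDUFB3*, a subunit of respiratory complex I, had 74.4, 69.6, 60.2 and 92.4 CPM with collagen alone and 49.7, 49.2, 41.3 and 49.6 CPM with RUNXi (-0.74, SE 0.15, edgeR adjusted p = 0.0113 without and 0.0597 with replicate 3). In each of these groups 0 genes passed with collagen replicate 3 included or, in the fit without it, when collagen replicate 4 was left out. With replicate 3 included, 31, 36, 32 and 15 of them had an unadjusted p under 0.05 by edgeR, and DESeq2 called 0, 0, 2 and 0. Over all genes the numbers were 1632 at an unadjusted p and 145 by DESeq2. Without collagen replicate 1 the counts of lower genes were 25, 20, 17 and 8, in a fit that called 363 of all genes lower, against 198 with that library. Ribosomal protein genes have many processed pseudogenes, and their single values are uncertain.

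Transcript length differed between the higher and the lower genes. Canonical transcripts had a median length of 3255 bases over all genes tested. The 351 higher genes had a median of 7451 bases and the 198 lower genes one of 1670 bases, and the 30 and 29 genes called in both fits had medians of 5243 and 2015 bases. Of transcripts over 8000 bases, 146 were higher and 4 lower (median log2 fold change 0.33), and of those under 1000 bases 2 were higher and 39 lower (-0.27). An index of each library, the mean deviation (log2) of transcripts of 8000 bases or more minus that of transcripts under 1000 bases, was -0.10, -0.14, 0.26 and -0.66 in collagen replicates 1 to 4 and 0.11, 0.22, 0.10 and 0.21 in RUNXi replicates 1 to 4. Collagen replicate 4 thus stood lowest and replicate 3 above every RUNXi library. With the length trend removed from each library, 110 genes were higher and 123 lower without collagen replicate 3, the linkers fell from 11 to 2 called members and the chromatin regulators from 8 to 1, while 26 of the 30 and 23 of the 29 genes called in both fits were still called. Whether the trend belongs to the cells or to the libraries was not tested.

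**Figure D4:**
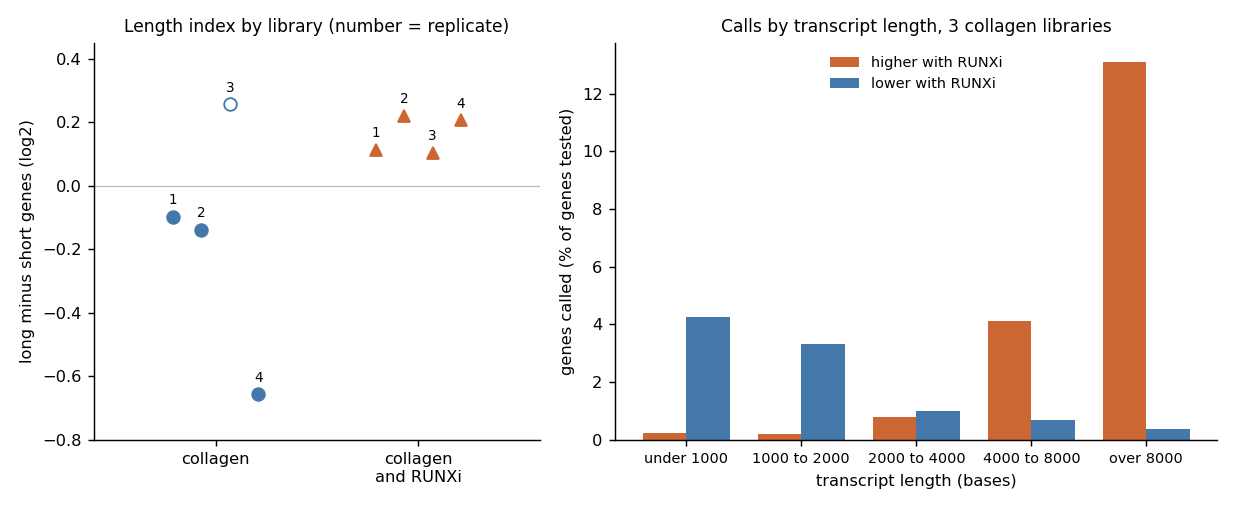
Left, length index of each collagen and RUNXi library (log2, numbered by replicate, open circle for collagen replicate 3), in which the RUNXi libraries lie between 0.10 and 0.22 and collagen replicates 3 and 4 lie above and below them. Right, percentage of tested genes in each class of transcript length that were called higher or lower with RUNXi against 3 collagen libraries, where long transcripts were mostly higher and short ones mostly lower.

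Several pathways that were examined had few or no called members. The shares over all genes tested were 2.59% higher and 1.46% lower, and 0.232% and 0.217% with collagen replicate 3. Counts of 0 or 1 in lists of these sizes are near those shares and are no result about the pathways. Of all 13548 genes tested, 2853 had an unadjusted p under 0.05 by edgeR and DESeq2 called 1153. With collagen replicate 3 these numbers were 1632 and 145. The unadjusted and DESeq2 counts below are to be read beside them. Of 48 genes of DNA replication 1 was higher (*POLE*) and 1 lower (*DUT*), and of 50 mitosis genes 1 was higher (*MKI67*) and 1 lower (*AURKB*), with 0 in either list by edgeR once collagen replicate 3 was included (7 and 11 at an unadjusted p under 0.05, and 0 and 1 by DESeq2). Interferon response genes (29 tested), cytokines and chemokines (18), the EGF family (12), TGF-β targets (13), cell cycle inhibitors and p53 targets (18) and metallothioneins (5) had 0 called by edgeR, while 3, 6, 6, 3, 3 and 2 of them had an unadjusted p under 0.05 and DESeq2 called 1, 2, 2, 1, 1 and 0. The cytokine list had a median log2 fold change of -0.73 without reaching a call, and 3 of its members were called without RUNXi replicate 1. Of 11 YAP and TEAD targets, 4 were higher (*TEAD1*, *AMOTL2*, *AXL* and *AMOTL1*), and of 13 Notch genes 2 (the receptors *NOTCH1* and *NOTCH2*), in both cases 0 with replicate 3 (7 and 2 at an unadjusted p under 0.05 by edgeR, 2 and 0 by DESeq2). *SPRY4*, a feedback inhibitor of growth factor signalling, was higher in both fits (log2 fold change 0.83, edgeR adjusted p = 0.00325 and 0.0284), as was the calcium pump *ATP2B4* (adjusted p = 0.0258 with replicate 3).

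**Figure D5:**
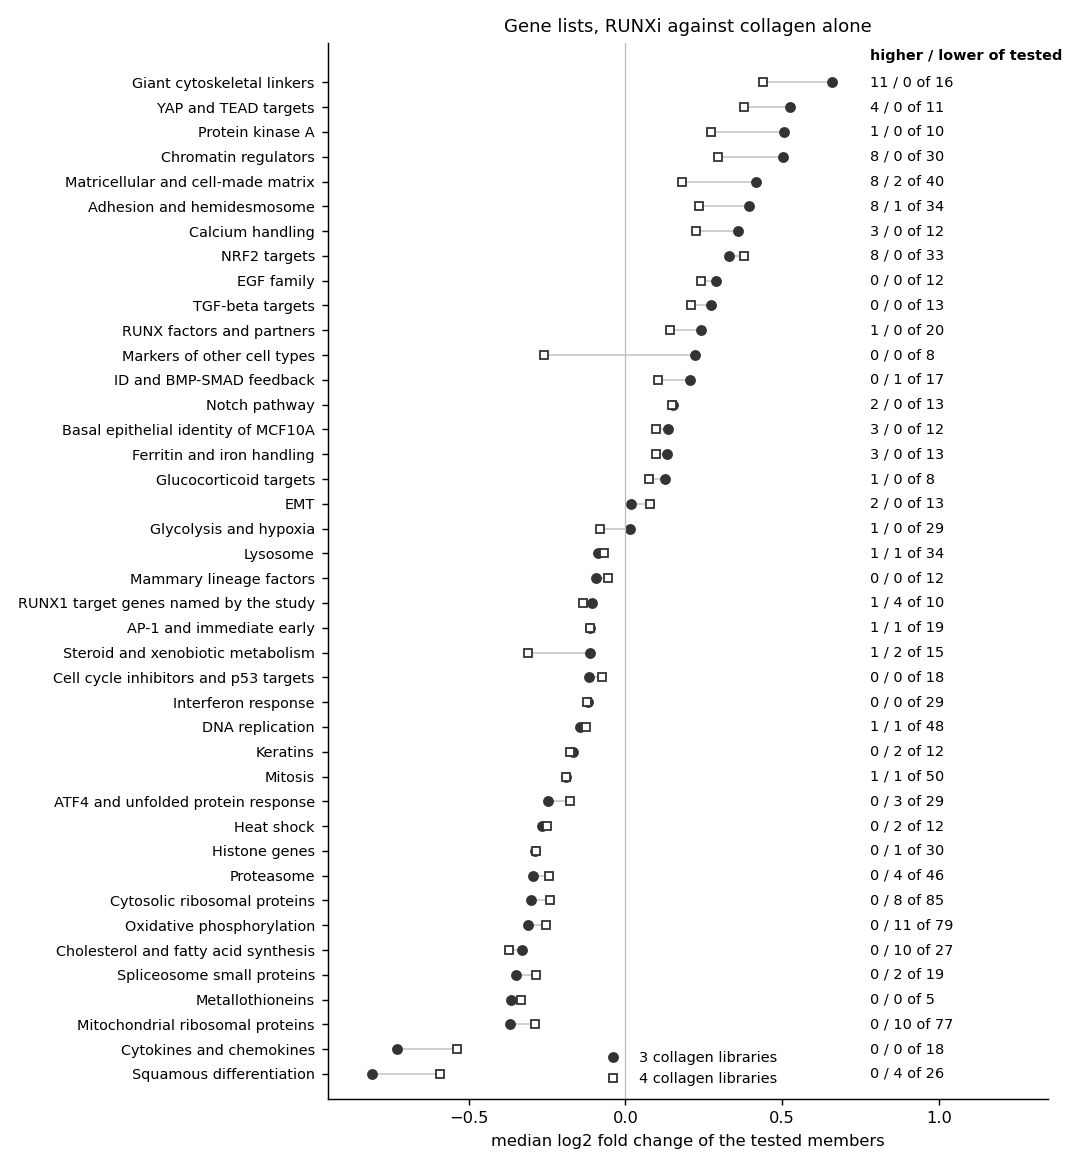
Median log2 fold change of the tested members of each gene list with 3 collagen libraries (filled circles) and all 4 (open squares), with the number called higher and lower of those tested in the fit without replicate 3. The median over all genes tested was 0.005, giant linkers lie highest at 0.66 and squamous genes lowest at -0.81.

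The direct comparison with DDR1i, at 2 μM against 5 μM of RUNXi, shares the RUNXi libraries with the comparison above. It called 30 genes higher and 47 lower with RUNXi. *AKR1C1* differed most in adjusted p (119 ± 32.1 CPM with RUNXi and 24.0 ± 4.95 CPM with DDR1i, SD, n = 4 each, log2 difference 2.30, SE 0.18, edgeR adjusted p = 7.80e-08). Part of this difference is a fall with DDR1i against collagen alone (log2 fold change -0.70, edgeR adjusted p = 0.0498). Against collagen alone DDR1i also gave *FTL* -0.39, *GCLC* -0.17, *TFRC* 0.08, *TXNRD1* 0.14, *SMOC1* 0.29 and *ABCC3* 0.36, none of them called. *FTL* (1.14), *TFRC* (0.93), *GCLC* (0.94), *ABCC3* (0.91), *TXNRD1* (0.74) and *SMOC1* (1.08) were higher with RUNXi as well, with edgeR adjusted p between 1.46e-05 and 0.000672. *TINAGL1* (-1.10), *CA2* (-1.10), *MVD* (-0.73), *INSIG1* (-0.70), *IGFBP6* (-0.81), *TAGLN* (-1.07) and *THBD* (-0.80) were lower, with edgeR adjusted p between 4.45e-05 and 0.0198. Chosen after their values were seen, *KRT14* and *KRT16*, keratins of basal and of stressed epithelium, differed between the inhibitors (0.97 and 1.346) but not between RUNXi and collagen alone (0.07 and 0.13), and their reads may be shared with close paralogs.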

How the data were processed

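Gene counts were used as deposited. Per the labels and the methods, the authors aligned 150-bp paired-end reads with STAR to hg19 (GRCh37) and deposited 1 table of raw counts per gene; the counting tool, annotation and strand setting were not given in the sources used here, so that overlapping and antisense genes cannot be told apart. Collagen replicates 1, 2 and 4 and the DDR1i and RUNXi libraries were fitted together in edgeR 4.0.16 (R 4.3.3; filterByExpr, TMM, robust quasi-likelihood test, Benjamini-Hochberg threshold 0.05), and again with collagen replicate 3. The test was checked on simulated data. Biological coefficient of variation was 0.287. SEs are the absolute log2 fold change over the square root of F. Length and GC trends were removed per library by splines with 4 degrees of freedom on log2 CPM (prior count 2). Principal components used 500 genes. DESeq2 1.42.0, other scalings, filters, groups in the fit, a replicate block and leaving out each library were alternatives. Replicate libraries of a group differed by more than counting error (chi-square over its degrees of freedom at least 18.7 in every pair).

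The comparison and gene lists were chosen with earlier results of these data known. Genes named are RUNX genes and targets the study names or assays, the 12 higher and 12 lower with the smallest larger adjusted p of both fits, the 5 higher and 5 lower with the largest fold change at a mean of at least 5 CPM, and up to 4 called members of each list. Others in the text (such as *AKR1C2*, *AKR1C3*, *FTH1*, *NQO1*, *HMGCS1*, *NFE2L2* and *ATP1B1*) were chosen after their values were seen. Single values of a few list members are not reported here, though list counts and medians include them.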

Additional observations from a re-analysis of the deposited data

Results flagged for a closer look

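In 11 of 236 groups of 4 values examined, the highest or lowest library stood apart from the other 3 by a larger share of the range of its group than Dixon's critical ratio at the 95% level allows. Chance alone gives about 11.8 such groups. Among the genes of the report these were collagen replicate 1 for *CBFB* (74.752 CPM), collagen replicate 3 for *PLEC* (1779.1 CPM), and collagen replicate 4 for *IGFBP6* (180.64 CPM), *KRT7* (3255 CPM) and *AURKB* (126.05 CPM). On the RUNXi side they were replicate 4 for *SMOC1* (85.589 CPM) and *AMOTL2* (122.89 CPM), replicate 3 for *NDUFB3* (41.285 CPM) and replicate 2 for *PSMA5* (166.3 CPM). Collagen replicate 1 had the lowest total count of its group (17570707), and in RUNXi replicate 3 the 20 most abundant genes took 9.582% of the counts. What sets these libraries apart was not tested.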

How the results depend on the processing

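Without collagen replicate 3, the 549 calls (351 higher, 198 lower) became 60 (31 and 29) with that library, 1153 (624 and 529) with DESeq2 and 145 (76 and 69) with DESeq2 and that library. With no filter on low counts there were 1046 (561 and 485), with the length trend removed 233 (110 and 123), and with that library as well 63 (33 and 30). Removing the GC trend gave 839 (462 and 377), scaling by library totals 502 (402 and 100), and an unadjusted p 2853 (1469 and 1384). With collagen replicate 3 included, DESeq2 called 145 and an unadjusted p 1632. Leaving out each library gave 123 (collagen replicate 4) to 715 (collagen replicate 1) calls, with 81 to 352 higher and 42 to 363 lower, and 25 to 55 with replicate 3 included. The causes were not tested. Deviations from the group mean correlated weakly between libraries of the same replicate number (0.067, 0.071 and 0.198 for collagen replicates 1, 2 and 4). Each of these was above the correlations between differently numbered libraries, which lay between -0.116 and 0.030. The main fit did not pair the libraries, and whether the numbers mark pairs was not tested. The 59 genes called in both fits, and the calls lost with collagen replicate 3, are those of unpaired fits. The replicate block gave 759 calls (473 and 286), and 178 (99 and 79) with collagen replicate 3. No named gene reversed its direction. Of 105 called named genes, 36 remained called with collagen replicate 3, 50 without collagen replicate 4 and 64 with the length trend removed. With the replicate block and collagen replicate 3, 57 remained called.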
